A study of Homo sapiens with 6 samples.

Results

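The genes described here were 10 regulators of the G1 phase and of entry into S phase: the G1 cyclins CCND1, CCND3, CCNE1 and CCNE2, the kinases CDK4 and CDK6, the inhibitors CDKN1A (p21) and CDKN1B (p27), and SKP2 with its cofactor CKS1B. They were chosen by symbol from the 30735 genes listed in the files, with earlier results of these data known, and all 10 were found. RNA-seq was done on PANC-1, an established human pancreatic cancer cell line, in 6 samples of 2 groups, 3 treated with CD73 siRNA (small interfering RNA against CD73, the cell surface enzyme encoded by NT5E) and 3 with negative control. Both groups were grown in DMEM with fetal bovine serum and transfected in serum-free medium with a lipid reagent, so the controls shared the transfection. CD73 siRNA was ordered under a single catalogue number with no sequence, and all samples came from the same cell line. The time between transfection and RNA isolation is not given in the sources used here. The study describes separate knockdown experiments, and the p-values measure only the spread between these samples.

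D-type cyclins bind CDK4 or CDK6, and the complex phosphorylates the RB protein, which then releases E2F factors. E2F factors switch on the E-type cyclins, which drive CDK2 and entry into S phase. p21 and p27 bind and inhibit cyclin-CDK2 complexes, and p27 is removed by the ubiquitin ligase SCF-SKP2, in which the small protein CKS1B (Cks1) helps SKP2 to hold phosphorylated p27. Cyclin D1 is induced by mitogens, and loss of INK4 inhibitors of CDK4 and CDK6 is frequent in pancreatic cancer. The study examined how CD73 knockdown bears on cell cycle progression and its regulators in these cells.

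The 6 libraries held between 15009113 and 16836207 reads, as recovered from the values, which were read as RPKM (reads per gene, divided by the exon length of the gene and by the total reads of the sample). NT5E itself was at 3.36, 6.85 and 8.22 RPKM after CD73 siRNA (replicates 1, 2 and 3), and at 14.0, 13.9 and 17.1 RPKM in the negative controls. No sample went against its label. The mesenchymal marker VIM was between 183 and 263 RPKM in all samples, while the ductal keratin KRT7 was at most 0.107 RPKM. The 6 epithelial and ductal markers summed to between 71.4 and 102 RPKM after CD73 siRNA and to between 136 and 254 RPKM in controls. Of the 5 tested, KRT8 and KRT18 fell, by 1.27 and 0.68 on the log2 scale (adjusted p = 0.303 for both in limma). KRT8 and KRT18 held most of each sum. KRT19, EPCAM and CDH1 did not pass, with log2 fold changes of -0.26, 0.03 and -0.12, and their groups overlapped. EPCAM and CDH1 were at most 1.71 RPKM in any sample. Control replicate 1 had the highest sum of the 6 markers, as it had the highest values of CCND1, CDKN1A, CDKN1B and SKP2. The part of these markers in the results below was not tested. Summed markers of immune cells (3 of 4 listed), endothelium (3 of 3) and islets (2 of 2) stayed below 0.1 RPKM in every sample. Of the fibroblast list (4 of 5 in the files), COL1A1 alone was above 1 RPKM, and the list summed to between 9.01 and 16.3 RPKM after CD73 siRNA and between 10.6 and 19.2 RPKM in controls. The 4 acinar markers were not found by symbol among the genes listed, so they have no values here.

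Of the 10 G1 genes, 4 were lower after CD73 siRNA at an unadjusted p below 0.01 in limma: SKP2, CCND1, CDKN1A and CDKN1B. None was higher at that level. The study gives a cut of the same size and does not say whether its p was adjusted. Among all 12527 genes tested, 3.13% passed it, 1.31% lower and 1.82% higher. With limma's Benjamini-Hochberg adjusted p, taken over all tested genes, 0 of the 10 were below 0.05. The unadjusted p was below 0.05 for 5 of the 10, the fifth being CDK6, which had a higher mean after CD73 siRNA, against 12.1% of all tested genes. In a linear model per gene without moderation, the form of the methods' t-test, 1 of the 10 was past 0.01, SKP2, against 1.72% of all tested genes. In bulk RNA, fewer cells holding a transcript and less of it per cell cannot be told apart. "Fell" and "rose" are used for genes past the unadjusted threshold. All 10 had at least 2.79 RPKM in every sample and passed the filter on low values. The groups did not overlap in 5 of the 10, against 18.4% of all tested genes. In 8 of the 10, the difference had the same direction within all 3 replicate numbers, against 51.4% of all tested genes. The median log2 fold change of the 10 was -0.18, and that of all tested genes was 0.01. Because the 10 were chosen with earlier results of these data known, the shares set beside them describe and do not test.

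**Figure D1:**
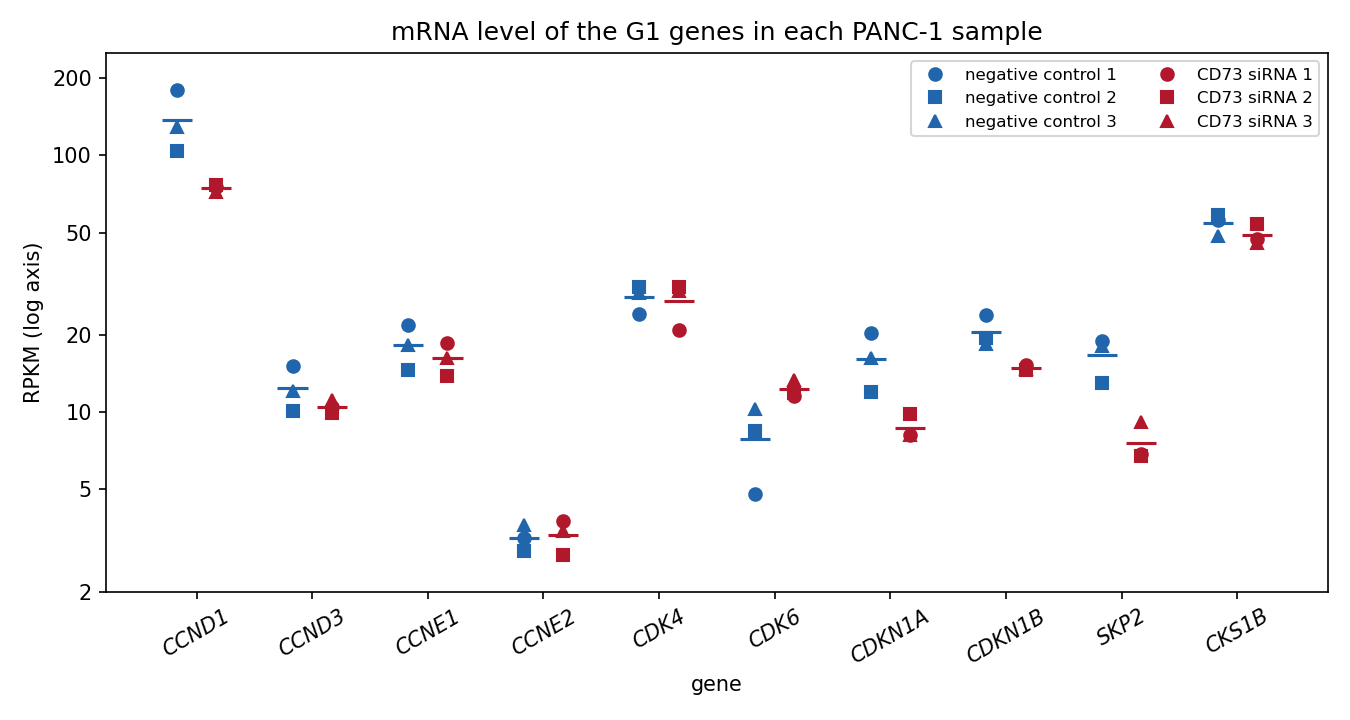
RPKM of the 10 G1 genes on a log axis, with 1 point per sample, circles, squares and triangles for replicates 1, 2 and 3, and horizontal lines at the group means (n = 3 each). Control and siRNA points are separate for CCND1, CDK6, CDKN1A, CDKN1B and SKP2, and they overlap for the other 5 genes.

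The stretch of RefSeq promoter around the GC box nearest to the gene's start was read for the 3 of the 4 lower genes that had an entry in the promoter table, and for CDK6, the gene with the highest log2 fold change of the 10. The GC box (GGGCGG, searched on both strands) is the letter motif bound by Sp1-type factors. Each stretch of 30 bases is printed 5′ to 3′ on the strand of the gene, in GRCh38.p14, with the GC boxes in capitals. Start means the start of the RefSeq entry, which can differ from that of the gene in GENCODE.
SKP2 (chr5:36151886-36151915, forward strand, box starting 213 bases before the start): tcagccgtagcgCCGCCCgcttccgcctcc
CDKN1A (chr6:36678662-36678691, forward strand, box starting 40 bases before the start and overlapping another): cgggcccGGGCGGGGCGGttgtatatcagg
CDKN1B (chr12:12717285-12717314, forward strand, box starting 71 bases before the start): ccagcctcggcgGGGCGGctcccgccgccg
CDK6 (chr7:92836618-92836647, reverse strand, box starting 62 bases before the start): tccgccgtccctCCGCCCtccgccgctgtg
In the 250 bases before the start, SKP2 and CDKN1B had 1 GC box each, CDKN1A had 4, and CDK6 had 3 in the promoter shown and 0 in its other listed one. In the GENCODE annotation the stretches of CDKN1A and CDKN1B lie in the 5′ UTR of a transcript of the same gene. That of SKP2 lies in the 5′ UTR of LMBRD2 on the opposite strand, and that of CDK6 upstream of CDK6, in an intron of the antisense gene AC002454.1. All 8 of the G1 genes matched in the table had a GC box in at least 1 listed promoter. Of the 35116 promoters of this length, 42.64% had one. The G1 count is per gene, over all its listed promoters, and the share is per promoter. This difference in unit holds for the other motifs too, so the counts and shares are not like for like. The motif was therefore found both in genes that fell and in CDK6. An AP-1 site (TGANTCA, both strands) was in 0 of the 8, against 6.573% of all promoters. An E box (CACGTG, the same on both strands) was in 1 of the 8, CDK4, which held 3 copies, against 6.345% of all. A CCAAT box (CCAAT, both strands) was in 3 of the 8, against 32.01% of all, and CKS1B held 5 copies. CCND1 and CCNE2 were the 2 genes not matched. Such matches describe letters in a short window only.

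SKP2 encodes the F-box protein that recruits p27 to its ubiquitin ligase. SKP2 (ENSG00000145604) lies on chromosome 5 of GRCh38 (36151989 to 36184319) and was measured with 406 to 1167 reads per sample. SKP2 mRNA was at 6.87, 6.72 and 9.18 RPKM after CD73 siRNA and at 18.96, 13.01 and 18.02 RPKM in the negative controls. Every siRNA sample was below every control, and the lowest control was replicate 2. The siRNA mean, 7.59 ± 1.38 RPKM, was 45.6% of the control mean, 16.7 ± 3.20 RPKM (SD, n = 3 each). SKP2 fell by 1.03 on the log2 scale (standard error 0.17, unadjusted p = 0.000299 and adjusted p = 0.303 in limma). Ranked by p, it stood at place 11 of the 12527 genes tested. The differences within replicates 1, 2 and 3 were -1.34, -0.86 and -0.90 on log2(RPKM + 1). The exact permutation test gave p = 0.1, the smallest value possible with 3 samples against 3.

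CKS1B (ENSG00000173207), the partner of SKP2 in p27 recognition, did not pass the test. It lies on chromosome 1 (154974653 to 154979249) and was the second most abundant of the 10 genes per length in both groups. Its values were 47.2, 54.1 and 45.4 RPKM after CD73 siRNA against 56.2, 58.4 and 48.6 RPKM in controls, and the groups overlapped. The log2 fold change was -0.15, with a 95% confidence interval from -0.41 to 0.11 and an adjusted p of 0.622 in limma. Within each replicate number the siRNA sample was the lower one, by 0.25, 0.11 and 0.09 in size on the log2 scale. The log2 ratio of SKP2 to CKS1B within a sample was -2.78, -3.01 and -2.31 after CD73 siRNA and -1.57, -2.17 and -1.43 in controls, with no overlap. The SKP2 transcript was thus the scarcer of the pair in all 6 samples, and by a wider margin in the siRNA samples. These ratios were described and not tested.

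CDKN1B (ENSG00000111276), which encodes p27, also fell. It lies on chromosome 12 (12715058 to 12722371) and was read 646 to 1077 times per sample. Its values were 15.3, 14.6 and 14.7 RPKM after CD73 siRNA and 23.9, 19.5 and 18.3 RPKM in the controls. The siRNA samples were close together and all below the lowest control, replicate 3. The mean was 72.3% of that in controls (14.9 ± 0.38 against 20.6 ± 2.92 RPKM, SD, n = 3 each). CDKN1B fell by 0.43 on the log2 scale (standard error 0.12, unadjusted p = 0.00612 and adjusted p = 0.305 in limma). Of the 13 alternative fits, 7 kept its unadjusted p below 0.01, the fewest of the 4. Without any single sample other than negative control replicate 3 the unadjusted p was above 0.01, between 0.0102 without negative control replicate 2 and 0.0210 without CD73 siRNA replicate 2. The log2 ratio of CDKN1B to SKP2 was 1.16, 1.12 and 0.68 after CD73 siRNA and 0.33, 0.58 and 0.03 in controls. Both transcripts were lower after CD73 siRNA, and relative to SKP2 the p27 transcript was higher in each siRNA sample than in each control.

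CDKN1A (ENSG00000124762) encodes p21, the other CDK inhibitor of the set, and lies on chromosome 6 (36676460 to 36687339). It was at 8.14, 9.79 and 8.14 RPKM after CD73 siRNA and at 20.34, 11.95 and 16.19 RPKM in controls, from 399 to 995 reads. The siRNA samples lay below all controls, but siRNA replicate 2 and control replicate 2 came close to each other. Of the control mean, 53.8% remained (8.69 ± 0.95 against 16.2 ± 4.19 RPKM, SD, n = 3 each). CDKN1A fell by 0.80 on the log2 scale (standard error 0.18, unadjusted p = 0.00226 and adjusted p = 0.303 in limma). Differences within replicates 1, 2 and 3 were -1.22, -0.26 and -0.91. Without CD73 siRNA replicate 1 the unadjusted p was 0.0105. The summed RPKM of CDKN1A and CDKN1B was 23.5, 24.4 and 22.9 after CD73 siRNA and 44.2, 31.4 and 34.5 in controls. The log2 ratio of CDKN1A to CDKN1B overlapped between the groups, at -0.91, -0.58 and -0.86 against -0.23, -0.71 and -0.18.

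CCND1 (ENSG00000110092), the gene of cyclin D1, was the most abundant of the 10 per length in both groups. It lies on chromosome 11 (69641087 to 69654474), and 5846 to 13959 reads stood behind each value. CCND1 was at 75.5, 76.9 and 72.1 RPKM after CD73 siRNA and at 180, 104 and 129 RPKM in controls. The siRNA samples differed little among themselves (SD 2.46 RPKM), while the controls were spread more widely (SD 39.0 RPKM). Of the control mean, 54.4% remained. CCND1 fell by 0.83 on the log2 scale (standard error 0.18, unadjusted p = 0.00186 and adjusted p = 0.303 in limma). Within replicates 1, 2 and 3 the differences were -1.24, -0.43 and -0.83. An annotated neighbour, LTO1, shares 10.3% of the exon bases of CCND1, so the level of CCND1 is uncertain by an amount that was not measured.

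CCND3 (ENSG00000112576), the gene of cyclin D3, is the second D-type cyclin with appreciable expression and lies on chromosome 6 (41934933 to 42050357). It was at 10.5, 9.95 and 11.1 RPKM after CD73 siRNA and at 15.1, 10.1 and 12.1 RPKM in controls, so the groups overlapped. The log2 fold change was -0.21 with an interval from -0.54 to 0.12 and an adjusted p of 0.587 in limma. CCND2, the remaining D-type cyclin, was at most 0.186 RPKM in any sample, from 3 to 20 reads. CCND1 made up 87.7%, 88.4% and 86.6% of the summed RPKM of the 3 D-type cyclins after CD73 siRNA, and 92.2%, 91.1% and 91.3% in controls. Cyclin D1 thus remained the main D-type transcript in every sample. The log2 ratio of CCND1 to CCND3 was 2.85, 2.95 and 2.70 after CD73 siRNA against 3.58, 3.36 and 3.42 in controls, without overlap.

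CDK6 and CDK4 are the kinases that D-type cyclins bind. CDK6 (ENSG00000105810), on chromosome 7 (92604921 to 92836594), was at 11.5, 11.9 and 13.4 RPKM after CD73 siRNA and at 4.79, 8.43 and 10.3 RPKM in controls. All siRNA samples lay above all controls, and control replicate 1 was the lowest sample of the 6. The mean was 1.56 times that of the controls (12.3 ± 0.97 against 7.84 ± 2.81 RPKM, SD, n = 3 each). In limma this was a difference of 0.64 on the log2 scale (standard error 0.23, unadjusted p = 0.0232, adjusted p = 0.357). With samples paired by a block on replicate number, the unadjusted p of CDK6 was 0.00517 and its adjusted p 0.119. Under the block 5 of the 10 genes were past the unadjusted threshold, 4 lower and 1 higher, against 7.57% of all tested genes. Without negative control replicate 3 the unblocked p was 0.00477 and the log2 fold change 0.84, and without negative control replicate 1 the log2 fold change was 0.36.

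CDK4 (ENSG00000135446), the other kinase of cyclin D, lies on chromosome 12 (57747727 to 57756013). It was at 20.8, 30.6 and 29.5 RPKM after CD73 siRNA and at 24.1, 30.6 and 29.1 RPKM in controls. The samples numbered 2 were level with each other and so, nearly, were those numbered 3. The log2 fold change was -0.06, with an interval from -0.44 to 0.32 and an adjusted p of 0.904 in limma. The level of CDK4 is uncertain, since TSPAN31 shares 43.2% of its exon bases. CDK6 supplied 35.6%, 27.9% and 31.1% of the summed RPKM of CDK4 and CDK6 after CD73 siRNA and 16.6%, 21.6% and 26.1% in controls. The sum itself overlapped between the groups, from 32.4 to 42.9 RPKM after CD73 siRNA and from 28.9 to 39.5 RPKM in controls.

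**Figure D2:**
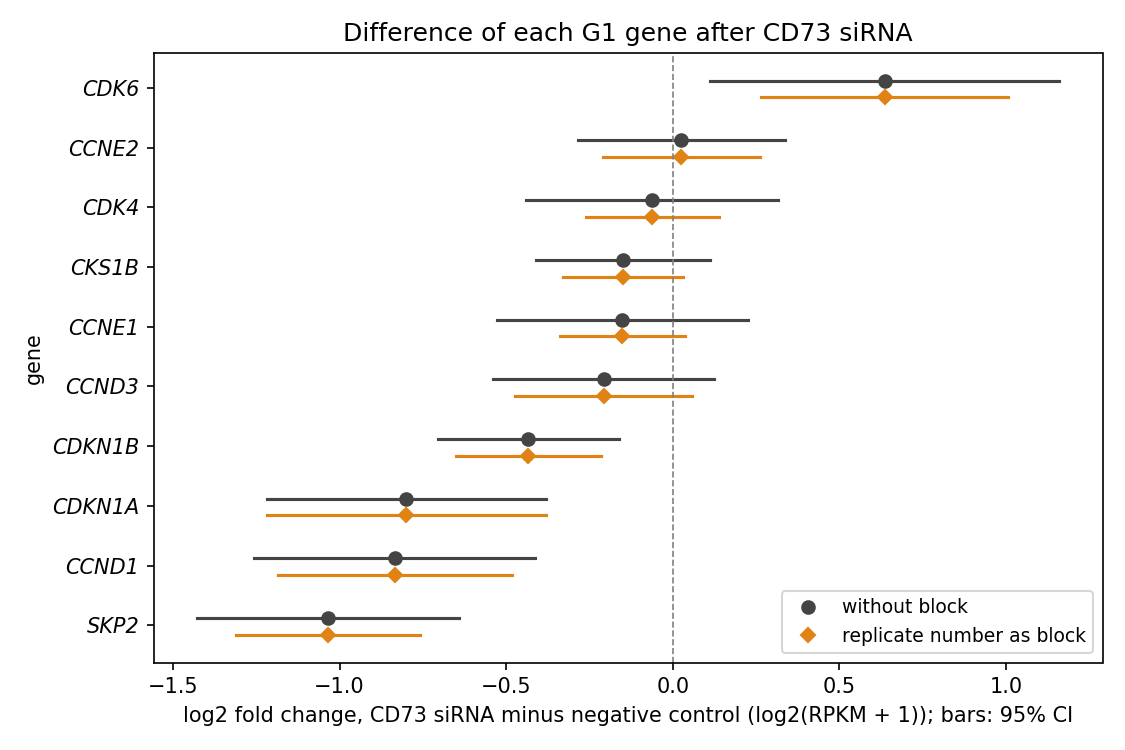
Log2 fold change of each G1 gene (CD73 siRNA minus negative control, on log2(RPKM + 1)) with its 95% confidence interval, from limma without a block (grey) and with a block on replicate number (orange). The intervals of SKP2, CCND1, CDKN1A and CDKN1B lie below 0 and that of CDK6 above 0 in both fits, while those of the other 5 genes include 0.

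The E-type cyclins, which act after cyclin D and are themselves E2F targets, did not pass the test, and their groups overlapped. CCNE1 (ENSG00000105173), on chromosome 19 (29811898 to 29824308), was at 18.6, 13.8 and 16.3 RPKM after CD73 siRNA and at 21.8, 14.6 and 18.2 RPKM in controls. Its log2 fold change was -0.15, with an interval from -0.53 to 0.23 and an adjusted p of 0.736 in limma. Replicate 2 was the lowest sample in both groups. CCNE2 (ENSG00000175305), on chromosome 8 (94879770 to 94896678), was the least abundant of the 10, at 3.78, 2.79 and 3.43 RPKM after CD73 siRNA and at 3.23, 2.87 and 3.64 RPKM in controls. Its log2 fold change was 0.03, with an interval from -0.28 to 0.34 and an adjusted p of 0.957. From 193 to 267 reads stood behind the values of CCNE2, and 37.1% of its exon bases are shared with other annotated genes, INTS8 among them. The interval of CCNE1 includes a difference of the size measured for CDKN1B, and that of CCNE2 does not. The log2 ratio of CCNE1 to CCNE2 was 2.30, 2.30 and 2.24 after CD73 siRNA and 2.75, 2.35 and 2.33 in controls, and only control replicate 1 stood well apart.

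**Figure D3:**
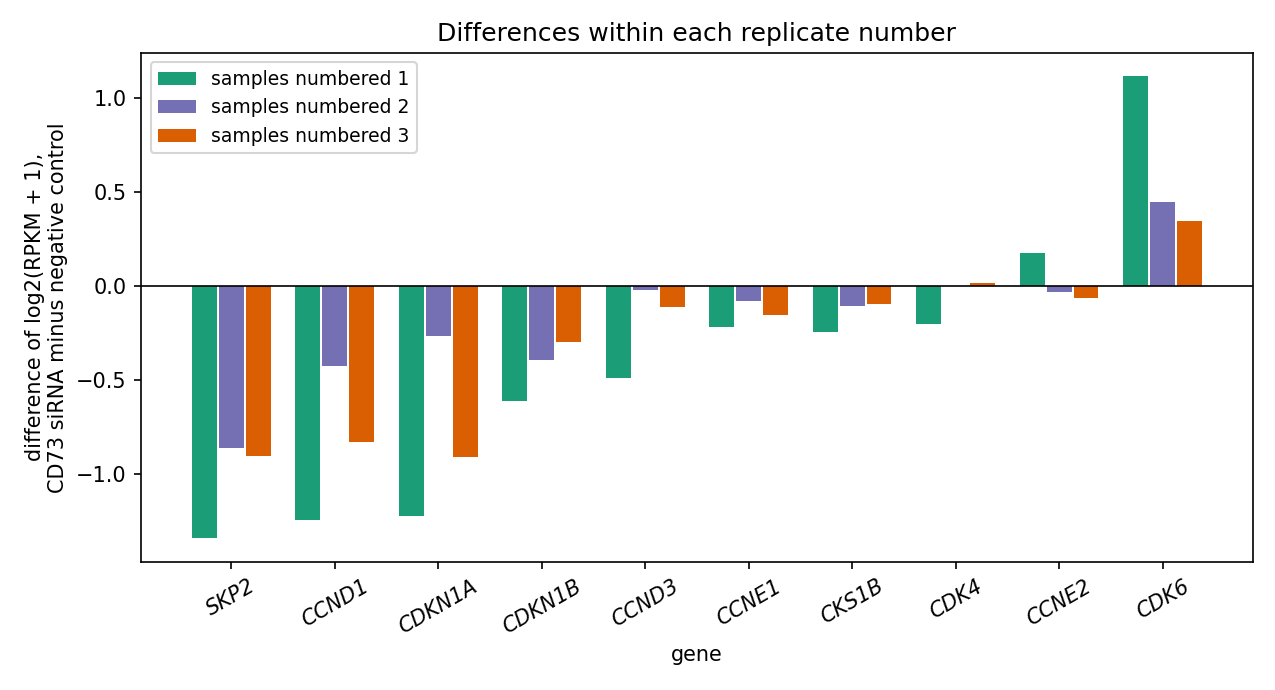
Difference of log2(RPKM + 1) between the CD73 siRNA sample and the control sample of the same replicate number, with 3 bars per gene in the order 1, 2 and 3. SKP2, CCND1, CDKN1A and CDKN1B are below 0 and CDK6 above 0 in all 3 numbers, and the samples numbered 1 have the longest bar in each of these 5 genes.

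In the controls the order of the levels was CCND1, CKS1B, CDK4, CDKN1B, CCNE1, SKP2, CDKN1A, CCND3, CDK6 and CCNE2. The ranges of CCND1, CKS1B and CDK4 did not overlap that of the gene after them, and CCNE2 was separate at the low end. CDK4 and CDKN1B came close, at 24.1 and 23.9 RPKM in control replicate 1. The places of CCND1, CDK4 and CCNE2 are uncertain, since they share exon bases with other genes. The ranges of neighbours overlapped from CDKN1B down to CDK6. After CD73 siRNA the order from the top was CCND1, CKS1B, CDK4, CCNE1, CDKN1B, CDK6, CCND3, CDKN1A, SKP2 and CCNE2. SKP2 went from place 6 to place 9 and CDK6 from place 9 to place 6. Neighbours overlapped only for CCNE1 with CDKN1B and for CDKN1A with SKP2. The ratio of CCND1 to the sum of CDKN1A and CDKN1B, on the RPKM scale, was 3.22, 3.15 and 3.15 after CD73 siRNA and 4.07, 3.30 and 3.73 in controls. The cyclin transcript and those of both inhibitors were all lower, and the ratio was lower in each siRNA sample than in each control, with little space between siRNA replicate 1 and control replicate 2.

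**Figure D4:**
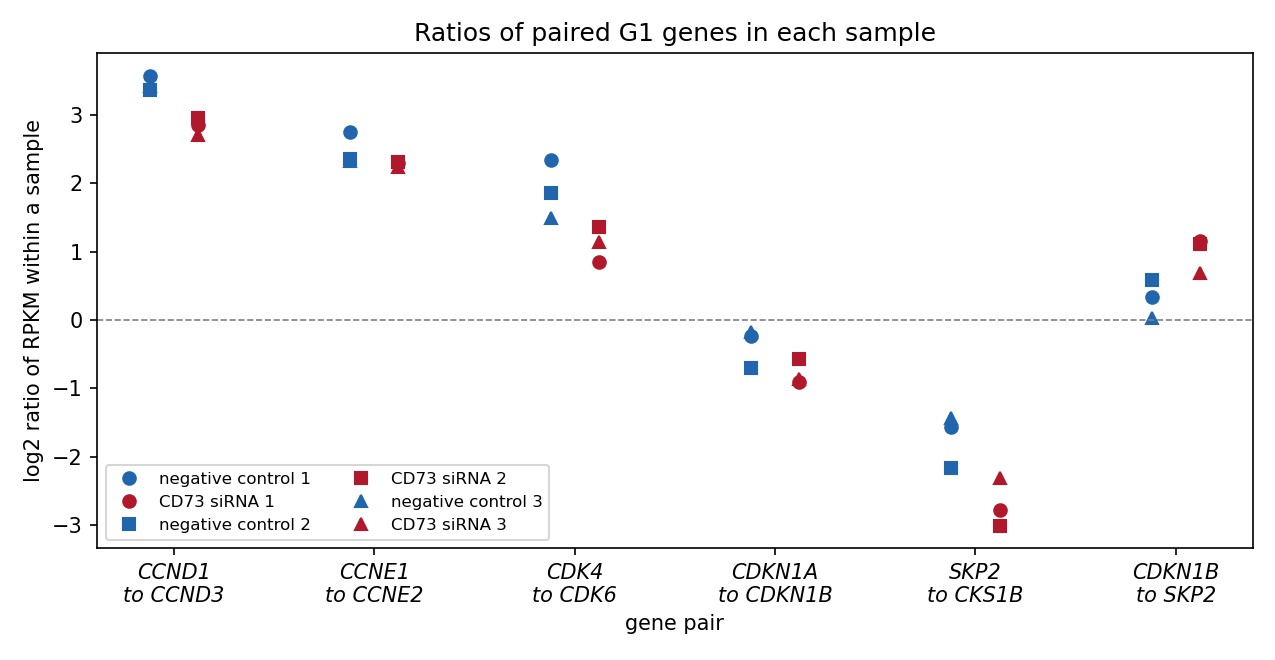
Log2 ratio of RPKM within each sample for 6 pairs of G1 genes, with blue for negative control, red for CD73 siRNA and circles, squares and triangles for replicates 1, 2 and 3. The groups are separate for 5 of the pairs and overlap for CDKN1A to CDKN1B.

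The genes with the pattern nearest to SKP2 and CCND1 over the 6 samples were sought among 7394 genes with a mean of at least 5 RPKM, by the root mean square difference of centred log2(RPKM + 1) values. Nearest to CCND1 was CDKN1A, at 0.08, followed by TUSC2 and IL4R, at 0.11 each. In both CCND1 and CDKN1A, control replicate 1 was highest, replicate 3 next and replicate 2 lowest, and all siRNA samples were lower still. Nearest to SKP2 were XXYLT1 (0.18), BRMS1L (0.18) and GSR (0.19), with CCND1 at place 7 and CDKN1A at place 10. These distances describe likeness over the 6 samples, which include the difference between groups.

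A wider list of 35 G1/S genes held the RB family, the E2F factors and their partners, CDK2, cyclin A2 and the INK4 inhibitors, and 31 of them were tested. CCND2 and LIN37 were below the filter. Past the unadjusted threshold was 1 of the 31, E2F1, a share near the 3.13% of all tested genes, and 16 had a higher and 15 a lower mean after CD73 siRNA. The median log2 fold change was 0.03, against 0.01 over all tested genes. E2F1, an E2F factor that RB holds back, ranged from 39.9 to 43.9 RPKM after CD73 siRNA and from 26.3 to 34.8 RPKM in controls. The means were 41.9 ± 1.98 and 30.3 ± 4.26 RPKM (SD, n = 3 each). E2F1 rose by 0.46 on the log2 scale (standard error 0.12, unadjusted p = 0.0047 and adjusted p = 0.303 in limma), and the groups did not overlap. Over the single samples left out the unadjusted p of E2F1 ran from 0.00153 to 0.0183. It was above 0.01 without CD73 siRNA replicate 1 or 3 and without negative control replicate 1 or 3, and 0.0180 without moderation. The other E2F factors of the list, none past the threshold, had lower means, with log2 fold changes from -0.27 to -0.07. With the replicate block 4 of the 31 were past the threshold, against 7.57% of all tested genes, E2F1 higher and RB1, MYC and CCNG1 lower. The last 3 were named after their values were seen. Without the block the adjusted p of RB1, MYC and CCNG1 was 0.342, 0.361 and 0.373 in limma. The groups overlapped for MYC and CCNG1, whose unadjusted p without the block was 0.0253 and 0.0297. RB1, the pocket protein that CDK4 and CDK6 phosphorylate, was at 7.86, 11.7 and 11.3 RPKM against 13.1, 16.5 and 14.7 RPKM in controls (log2 fold change -0.50, unadjusted p = 0.0142 without and 0.00128 with the block, limma). CDKN2A and CDKN2B were not found by symbol among the genes listed, so they have no values here.

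Of 14 other genes listed for the SKP2 ligase and its regulation, 1 was past the threshold, against 3.13% of all tested genes. This was USP10, a deubiquitinase, and it was lower. The median log2 fold change of the list was 0.01. USP10 was at 22.4, 29.8 and 26.5 RPKM after CD73 siRNA and at 37.0, 35.8 and 33.7 RPKM in controls (log2 fold change -0.43, unadjusted p = 0.00736, adjusted p = 0.305, limma). Its unadjusted p ran from 0.00384 to 0.0269 over the single samples left out and was below 0.01 only without CD73 siRNA replicate 2. The groups did not overlap in 4 of the 14, against 18.4% of all tested genes. With the block 2 of the 14 were past the threshold, USP10 and CKS2, both lower, against 7.57% of all tested genes. CKS2 is named after its value was seen.

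Of 34 E2F target genes of DNA replication, all of them tested, 0 passed the unadjusted threshold of 0.01, against 3.13% of all tested genes. An unadjusted p below 0.05 in limma was found for 3, against 12.1% of all tested genes. Higher means after CD73 siRNA were found in 21 and lower means in 13, against 6511 and 6016 of all 12527 tested genes. The median log2 fold change was 0.06, against 0.01 over all tested genes. The smallest p was that of RRM2, a ribonucleotide reductase subunit, at 97.8, 99.8 and 90.8 RPKM after CD73 siRNA and 57.8, 84.0 and 77.0 RPKM in controls. Its log2 fold change was 0.41, with an unadjusted p of 0.0209 and an adjusted p of 0.357. Over the single samples left out the unadjusted p of RRM2 ran from 0.00758 without negative control replicate 2 to 0.0563 without CD73 siRNA replicate 2, and its log2 fold change was 0.25 without negative control replicate 1.

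**Figure D5:**
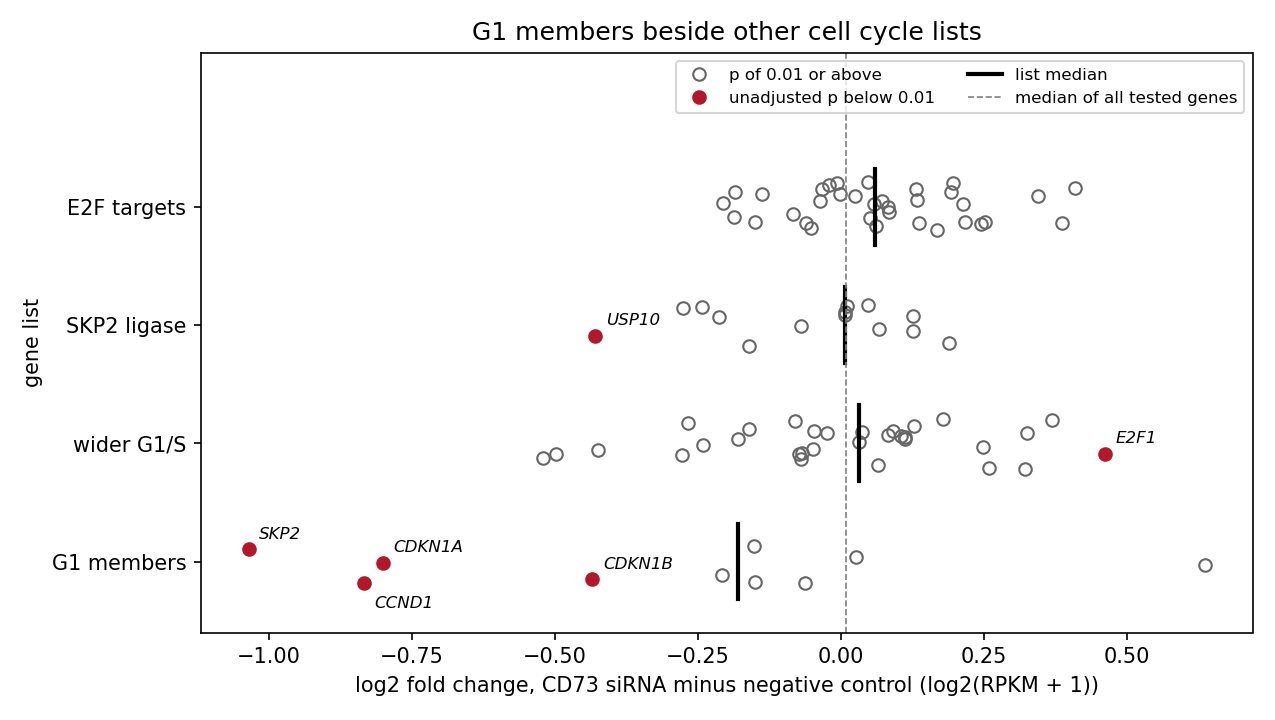
Log2 fold change (CD73 siRNA minus negative control, on log2(RPKM + 1)) of each tested gene in 4 lists, with filled points for an unadjusted p below 0.01, black bars at the list medians and a dashed line at the median of all tested genes. The 4 filled points of the G1 members lie below 0, and the median of that list is -0.18. In the other lists E2F1 (0.46) and USP10 (-0.43) are filled, and the medians are 0.03, 0.01 and 0.06.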

How the data were processed

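The authors deposited 1 table per sample with a value for each of 30735 Ensembl genes. The deposited values were read as RPKM, a unit not stated in the sources used here. Multiplied by merged exon length (GENCODE 29, GRCh38), the values gave whole reads within 0.02 for 95.1% to 95.2% of genes, judged below 1000 reads. The submitters' processing notes name bcl2fastq, Bowtie2 2.2.3, HTSeq 0.6.0 and hg38. Strand setting and annotation are not given in the sources used here. Overlapping genes are therefore uncertain. Symbols were found for 30603 identifiers. Groups and replicate numbers came from the sample titles, and no 2 files of a group agreed within sampling noise.

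Genes reaching 1 RPKM in 3 or more samples were fitted with limma 3.58.1 in R 4.3.3 (eBayes with a trend) on log2(RPKM + 1), which understates changes of low genes. Adjusted p-values are Benjamini-Hochberg over all tested genes. The fits were run on simulated data with independent noise in each sample and changes larger than those of the 10 genes. That run cannot show how changes of the size reported are recovered. The study's methods name a t-test for all data, and the fit without moderation is its form for each gene. Same-numbered samples deviated together across genes (correlations 0.20, 0.48 and 0.55), most weakly for number 1. Pairing by number rests on the labels. The main fit left it out, and the block is given as an alternative. Alternatives tried were equal sums, no filter, a pseudocount of 0.1, quantile normalization, the block, no moderation, no trend, each sample left out and an adjusted threshold. The members and lists were chosen with earlier results of these data known. Named genes were the 10 members, NT5E, list genes past the threshold or with the smallest p, genes of the G1 machinery below 1 RPKM and the 3 nearest patterns to SKP2 and CCND1, and RB1, MYC, CCNG1 and CKS2 were added after their values were seen. Promoter sequences are from RefSeq (GRCh38.p14).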

Additional observations from a re-analysis of the deposited data

How the results depend on the processing

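SKP2 was past the unadjusted p of 0.01 under all 13 alternative fits, with log2 fold changes from -1.19 to -0.94, and CCND1 under 12 of them, from -1.02 to -0.62. Equal sums, quantile normalization, a pseudocount of 0.1, no filter and no variance trend changed no call and no direction among the 10 genes. At an adjusted p below 0.05, 0 of the 10 and 1 of all tested genes were left. Without moderation across genes 1 of the 10, SKP2, and 216 genes in all passed, and CCND1 (-0.83), CDKN1A (-0.80), CDKN1B (-0.43) and NT5E (-1.23) did not. Of the 31 tested genes of the wider G1/S list 1 passed, and it was not E2F1. No SKP2 ligase gene did.

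With the replicate block as a pairing, 948 genes passed in place of 392, together with 4 wider G1/S genes, 2 SKP2 ligase genes and CDK6 (0.64). It changed no other call of the 10 genes.

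Over single samples left out, calls over all genes lay between 116, with CD73 siRNA replicate 1 left out, and 792, with negative control replicate 2 left out, and were also moved by over 1.5 times without negative control replicates 1 (188) and 3 (258). They went from 2 (CD73 siRNA replicate 1 left out) to 5 (negative control replicate 3 left out) for the G1 genes, from 0 to 3 for the wider list, from 0 to 1 for the SKP2 ligase list and from 0 to 1 for E2F targets. Log2 fold changes ranged from -0.99 to -0.63 for CDKN1A, from -0.51 to -0.33 for CDKN1B, from 0.36 to 0.84 for CDK6, from -0.34 (negative control replicate 2 left out) to -0.068 (negative control replicate 1 left out) for CCND3, from -0.29 to -0.020 for CCNE1 (the same 2 samples), from -0.23 (negative control replicate 3 left out) to -0.097 (negative control replicate 2 left out) for CKS1B, from -0.048 to 0.12 for CCNE2 and from -0.16 to 0.11 for CDK4. The last 2 turned direction without CD73 siRNA replicate 1 (-0.048 and 0.11) and without negative control replicate 2 (-0.039 and 0.0052). No SKP2 ligase gene passed with equal sums (0) or without a variance trend (0), and 2 wider genes passed with no filter. Of all calls, 58.2% were higher, 66.8% with equal sums, and over single samples left out from 46.5% (CD73 siRNA replicate 3) to 68.2% (negative control replicate 2). The cause was not tested. At least 193 reads stood behind each value of the 10 genes.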
